A study of Mus musculus with 3 samples.

Results

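The cytosolic ribosomal protein genes were described by their H3K9ac summits in sorted mouse haematopoietic stem cells (HSCs). Members were the protein-coding gene records on chromosomes 1 to 19 and X whose symbol starts with Rpl or Rps and a digit, together with Rplp0, Rplp1, Rplp2 and Rpsa. Rps6k genes, Rps19bp1 and pseudogene names were left out, and no measured value was used. This gave 88 of 21631 protein-coding records. Of the 88, 77 encode the standard subunit proteins, 46 in the large and 31 in the small subunit. The other 11 are copies or relatives of those genes, so the name ribosomal protein gene fits them less well (Rpl3l, Rpl7l1, Rpl10l, Rpl22l1, Rpl32l, Rpl36al, Rpl37rt, Rpl39l, Rps23rg1, Rps27l and Rps27rt). Fau and Rack1 also encode ribosomal proteins but fall outside the symbol rule.

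H3K9ac is an acetylation of histone H3 found at active promoters and enhancers. It was profiled by CUT&Tag, in which an antibody guides a transposase that cuts and tags the nearby DNA, with 50000 sorted HSCs per assay. There were 3 libraries, 1 per group: old HSC ABC and old HSC, from mice aged 18 to 24 months, and young HSC, from mice aged 2 to 4 months. All groups were wild-type bone marrow HSCs. The labels do not spell out ABC, the sort gates or any pooling of animals. The sample names written inside the deposited lists disagreed with the labels. The old HSC ABC list carried the name oHSC-H3K9ac-2, the old HSC list oHSC-ABC-H3K9ac-1 and the young HSC list oHSC-H3K9ac-1. Libraries are named by their labels throughout, and every direction drawn between them rests on those labels.

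With 1 library per group no test was possible, no p-value is given, and no difference between libraries has a replicate check. The lists held 45386 summits in old HSC ABC, 108787 in old HSC and 33248 in young HSC. A summit is the 1 bp position of highest signal in a peak, and its score, read as −log10 of the q-value, depends on an unknown sequencing depth. Scores were therefore used to rank summits within a list, with rank 1 for the highest. Only the alternative settings also applied score minimums, the same in each list, so presence counts under them depend on depth. Counts of genes that changed rank between libraries used equal-length lists, each holding its top 33248 summits by score. In bulk libraries, fewer cells with the mark and less mark per cell cannot be told apart. Of 10 HSC marker genes, 10 had a summit in old HSC ABC, 10 in old HSC and 9 in young HSC, where the nearest summit to Slamf1 lay 16498 bp away. In equal-length lists 9, 10 and 9 of these genes were marked, in the same order of libraries. The median place of those was 53.4% in old HSC ABC, 34% in old HSC and 30.5% in young HSC. The 8 granulocyte markers were marked 5 times in old HSC ABC, 8 in old HSC and 5 in young HSC. In equal-length lists 4, 8 and 5 of them were marked, in the same order. The median place of those was 6.39% of the list in old HSC ABC, 2.59% in old HSC and 3.86% in young HSC. Markers of erythroid cells (2 of 5 in old HSC ABC, 3 in old HSC, 1 in young HSC), B cells (2, 4 and 2 of 5), T and NK cells (2, 3 and 2 of 5) and stroma and endothelium (2, 5 and 2 of 5) were marked most often in old HSC, the longest list. In equal-length lists the counts were 2, 3 and 1 for erythroid, 2, 3 and 2 for B cell, 1, 2 and 2 for T and NK cell and 2, 3 and 2 for stromal and endothelial markers, in the order old HSC ABC, old HSC and young HSC. Hba-a1 and Alas2, which define erythroid cells, had no summit in any library.

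Ribosomes are built from ribosomal RNA and a fixed set of proteins, which form a small subunit that decodes mRNA and a large subunit that joins amino acids. Most ribosomal protein mRNAs in mammals begin with a pyrimidine tract at the transcription start, through which mTOR and LARP1 control their translation. HSCs are known for a low rate of protein synthesis, and loss of 1 copy of certain ribosomal protein genes causes Diamond-Blackfan anaemia in humans. Unfinished ribosome assembly frees Rpl5 and Rpl11 to bind Mdm2 and stabilise p53.

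The start regions of 6 members are shown because their summits and start sequences differ. Each line runs 5′ to 3′ from 100 bases before to 50 bases after an annotated start (RefSeq, GRCm38.p6), and capitals mark the longest run of C or T that comes within 5 bases of the start. Rpl4 (chr9:64173287-64173436, plus strand) had the highest-ranked summit among members in every list. Rps13 (chr7:116334141-116334290, minus strand) and Rps28 (chr17:33824513-33824662, minus strand) had a summit just before the start in all 3 libraries. Rps24 (chr14:24490578-24490727, plus strand) and Rpl13a (chr7:45128696-45128845, minus strand) ranked low in some lists, and Rpl10l (chr12:66284352-66284501, minus strand) is a copy of Rpl10 with no summit.
Rpl4: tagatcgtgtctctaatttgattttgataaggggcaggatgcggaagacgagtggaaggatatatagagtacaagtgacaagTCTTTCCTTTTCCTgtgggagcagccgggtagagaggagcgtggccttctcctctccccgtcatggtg
Rps13: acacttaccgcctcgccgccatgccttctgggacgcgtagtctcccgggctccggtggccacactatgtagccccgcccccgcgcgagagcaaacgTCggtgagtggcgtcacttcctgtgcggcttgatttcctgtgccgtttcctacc
Rps28: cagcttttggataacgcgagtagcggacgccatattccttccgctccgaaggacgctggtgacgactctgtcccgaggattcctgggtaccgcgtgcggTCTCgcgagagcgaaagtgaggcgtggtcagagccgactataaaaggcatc
Rps24: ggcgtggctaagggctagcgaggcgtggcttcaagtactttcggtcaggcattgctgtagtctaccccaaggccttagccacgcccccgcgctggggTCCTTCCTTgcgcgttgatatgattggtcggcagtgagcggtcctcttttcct
Rpl13a: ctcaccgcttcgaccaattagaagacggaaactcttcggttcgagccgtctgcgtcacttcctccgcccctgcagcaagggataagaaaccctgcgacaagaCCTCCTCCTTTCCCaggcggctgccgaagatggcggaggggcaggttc
Rpl10l: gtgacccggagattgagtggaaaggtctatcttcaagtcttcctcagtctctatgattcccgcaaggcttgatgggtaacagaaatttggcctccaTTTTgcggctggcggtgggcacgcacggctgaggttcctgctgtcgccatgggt
The pyrimidine run measured 14 bases in Rpl4 and in Rpl13a and 9 in Rps24, but 4 in Rps28 and 2 in Rps13. In Rpl4 the run ended 5 bases before the annotated start, and in Rpl13a it began 2 bases past it. Among the 6 genes shown, a long run near the annotated start thus occurred both in the highest-ranked member and in low-ranked ones.

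Start regions of 300 bases, 250 before to 50 after the start, were at hand for 57 of the 77 standard genes and were set beside those of 17274 protein-coding genes. Motifs were searched on both strands, and a base could count for more than 1 motif. The letters CGGAAG, the core bound by ETS family factors such as GABP, were in 70.2% of the standard genes and in 23.8% of all genes. A pyrimidine run of at least 8 bases that came within 5 bases of the start was in 38.6% of the standard genes, against 11.6% of all genes. The median run was 6 bases in the standard genes and 4 over all genes. These shares depend on the cut of 8 and on the annotated start, so they do not count genes that lack a tract. AAGATGG, a core of YY1 sites, was in 15.8% against 7.24%, and the GC box GGGCGG in 61.4% against 49.8%. TATAAA occurred in 10.5% against 14.9%, and CCAAT in 31.6% against 42.7%. The median number of CpG pairs was 22 in the standard genes and 14 over all genes, at a median GC content of 57% and 56.5%. Mitochondrial ribosomal protein genes shared the ETS core, in 56.5%, but only 10.1% had the pyrimidine run. These matches describe the letters and do not show binding.

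All 77 standard genes had at least 1 summit inside the record or within 1 kb of either end, called marked below, in each of the 3 libraries (100%, exact 95% Clopper-Pearson interval 95.3 to 100). Intervals cover counting error only. Of all protein-coding genes, 62.9% were marked in old HSC ABC, 74.6% in old HSC and 58.9% in young HSC. The ribosomal windows were short, with a median of 5179 bp against 19329 bp over all genes. Members held 0.233 summits per kb of window in old HSC ABC, 0.239 in old HSC and 0.21 in young HSC, against 0.033, 0.0723 and 0.0253 over all genes in the same order of libraries. Where most genes have a single summit, this density is higher the shorter the window. It was not compared with genes of matched length. Member windows contained 119 summits in old HSC ABC, 122 in old HSC and 107 in young HSC. Their number changed little although the lists differed up to 3.27 times in length, so they made up 0.262% of the old HSC ABC list, 0.112% of the old HSC list and 0.322% of the young HSC list. Most standard genes had a single summit: 49 in old HSC ABC, 48 in old HSC and 54 in young HSC. For 46 of the 88 members the window overlapped that of another protein-coding gene, so a summit there may belong to the neighbour.

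Beyond being marked, the standard genes ranked high. The median place of their best summit was 5.03% of the list in old HSC ABC, 2.54% in old HSC and 6.17% in young HSC, where 0% would be the top. Over all marked genes the medians were 17.7%, 8.02% and 20.4%. Places in lists of different length, here and for single genes below, describe each list and show no change between libraries. In equal-length lists the standard genes had medians of 6.81% in old HSC ABC, 8.33% in old HSC and 6.17% in young HSC, and those in the top 10% numbered 48, 45 and 51 of 77. Of all protein-coding genes, 15.2% in old HSC ABC, 16% in old HSC and 16% in young HSC reached that top 10%. Both subunits ranked high. The large subunit genes had equal-length medians of 7.62%, 7.67% and 5.84%, and the small subunit genes 6.57%, 9.1% and 7.8%, each in the order old HSC ABC, old HSC and young HSC.

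**Figure D1:**
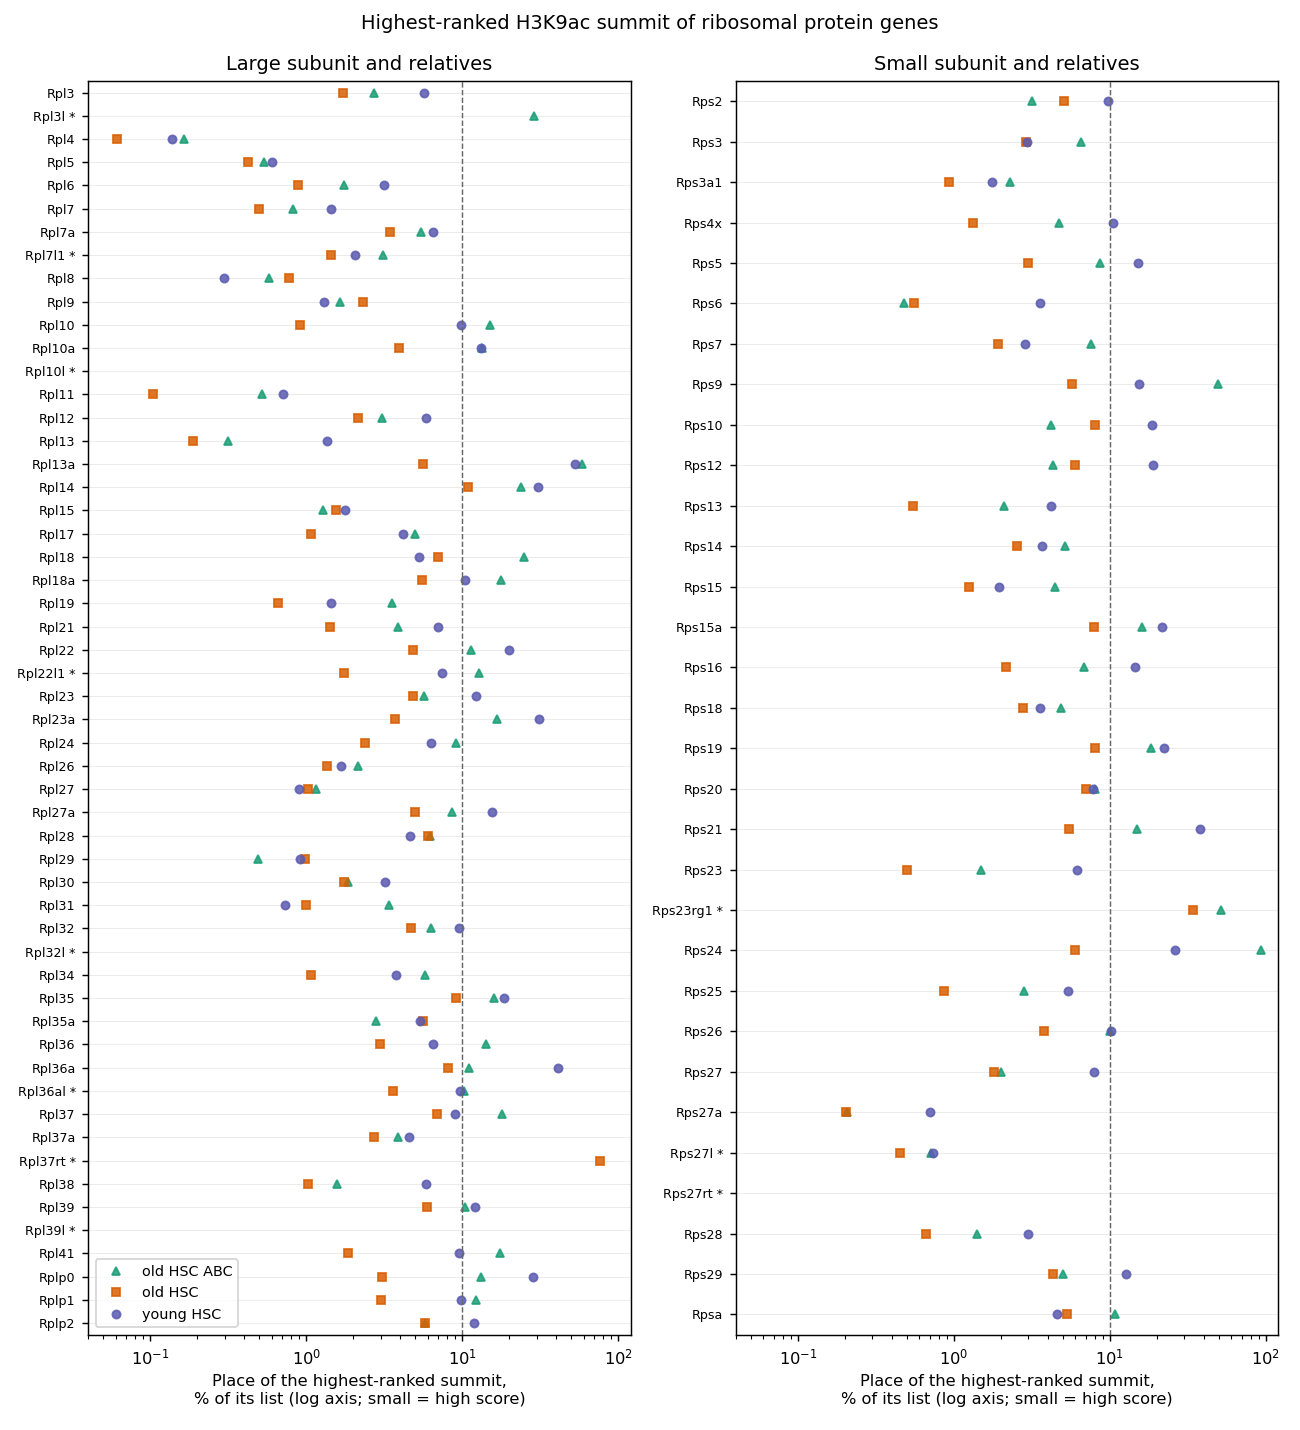
Place of the highest-ranked summit of the members shown, in the list of its library, in % of the list on a log axis, for old HSC ABC (triangles), old HSC (squares) and young HSC (circles); a star marks copies and relatives, and the dashed line is at 10%. Rpl4 stands at 0.163%, 0.0607% and 0.138% in old HSC ABC, old HSC and young HSC, and 4 copies have no point.

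At the top of the members stood Rpl4, a large subunit protein that lines the peptide exit tunnel (chromosome 9, 64173387 to 64178562). Its best summit ranked 74th of the old HSC ABC list, 66th of the old HSC list and 46th of the young HSC list, with scores of 51.9, 117 and 64.3. The summit lay 12 bp past the start in old HSC ABC, 185 bp past it in old HSC and 13 bp past it in young HSC. Its record also hosts 5 small nucleolar RNAs and its window overlaps those of Zwilch and Snapc5. Rps27a, which is made as a fusion with ubiquitin (chromosome 11, 29545842 to 29548040), ranked 93rd in old HSC ABC, 221st in old HSC and 232nd in young HSC. The 10 highest-ranked members of the 3 lists had 5 genes in common: Rpl4, Rpl5, Rpl11, Rps27a and Rps27l.

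The genes of the p53 checkpoint were among them. Rpl5 (chromosome 5, 107900508 to 107909005) ranked 241st in old HSC ABC, 461st in old HSC and 199th in young HSC. Rpl11 (chromosome 4, 136049354 to 136053393) ranked 237th, 113th and 235th in the same order. Both stayed within the highest 1% of every list. Rps27l, a relative of Rps27 that p53 induces, ranked 325th in old HSC ABC, 490th in old HSC and 246th in young HSC. Rpl13 ranked 142nd in old HSC ABC, 204th in old HSC and 453rd in young HSC. Rpl8, which lies near the peptidyl transferase centre, ranked 263rd in old HSC ABC, 837th in old HSC and 99th in young HSC.

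Rps6, the substrate of S6 kinase in the small subunit (chromosome 4, 86854099 to 86857367), ranked 217th in old HSC ABC, 601st in old HSC and 1183rd in young HSC. Rps14, whose loss marks the 5q- syndrome in humans, was near the middle, at 5.17% of the list in old HSC ABC, 2.54% in old HSC and 3.68% in young HSC. Rpsa, the small subunit protein also known as the laminin receptor, stood at 10.8%, 5.33% and 4.55%. The stalk, which recruits translation factors to the large subunit, was in the lower part of the members. Rplp0 stood at 13.2% in old HSC ABC, 3.07% in old HSC and 28.2% in young HSC, and its summit lay 283 bp past the start in all 3. Rplp1 stood at 12.3%, 3.01% and 9.8%, and Rplp2 at 5.79%, 5.75% and 11.9%. None of the 3 stalk genes reached the top 1% of a list.

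The 19 genes listed for Diamond-Blackfan anaemia are all standard genes, so all 19 were marked in every library. In equal-length lists 12 (63.2%) were in the top 10% in old HSC ABC, 10 (52.6%) in old HSC and 12 (63.2%) in young HSC. These shares were near the 62.3%, 58.4% and 66.2% of all standard genes. Rps19, the gene most often mutated in that disease (chromosome 7, 24884592 to 24889811), stood at 18.3% of the list in old HSC ABC, 8% in old HSC and 22.3% in young HSC. It was, like Rpl14, among the 10 lowest standard genes of every list. Rps28 was at the other end, at 1.4% in old HSC ABC, 0.666% in old HSC and 2.98% in young HSC.

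The lowest-ranked standard gene of any list was Rps24 in old HSC ABC (chromosome 14, 24490678 to 24496960). Rps24, which takes part in maturation of the small subunit RNA, had a single summit there, with a score of 2.08 at 92.6% of the list and 433 bp past the start. In old HSC its best summit lay 28 bp before the start at 5.97% of the list, and in young HSC 41 bp before the start at 26.1%. Old HSC ABC had no summit at the start that the other libraries marked. Rpl13a, which in human cells can leave the ribosome to silence mRNAs, stood at 58.1% in old HSC ABC, 5.62% in old HSC and 52.9% in young HSC. No summit was shared between the windows of 2 members. Rps9 had 4 summits in old HSC ABC, none scoring above 3.95, while its best summit stood at 5.71% of the list in old HSC and at 15.3% in young HSC. Rpl14 stood at 23.9%, 10.8% and 30.5%, and Rpl35, which sits at the exit of the peptide tunnel, at 16%, 9.13% and 18.4%, both in the order old HSC ABC, old HSC and young HSC. Low places in young HSC were those of Rpl36a at 41%, Rps21 at 37.9% and Rpl23a at 30.8%. In old HSC ABC these 3 genes stood at 11.1%, 14.9% and 16.6%, and in old HSC at 8.14%, 5.48% and 3.68%.

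The copies and relatives behaved less uniformly. Of 11, 6 were marked in old HSC ABC, 6 in old HSC and 4 in young HSC. Rps27l, Rpl7l1, Rpl36al and Rpl22l1 were marked in all 3 libraries. Rpl22l1, the relative of Rpl22, stood at 12.8% in old HSC ABC, 1.74% in old HSC and 7.4% in young HSC, and Rpl22, an RNA-binding protein needed for T cell development, at 11.3%, 4.86% and 19.9%. Rpl10l, Rpl32l, Rpl39l and Rps27rt had no summit in any library. Rpl10l replaces Rpl10 during male meiosis, and its nearest summit lay 775064 bp away in old HSC ABC and 775006 bp in each of the other lists. Rpl39l, a testis form of Rpl39, had its nearest summit 83308 bp away in old HSC ABC, 83717 bp in old HSC and 83718 bp in young HSC.

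Rpl and Rps pseudogenes, which are near copies of these genes elsewhere in the genome, were marked in 4 of 324 in old HSC ABC (1.23%), 27 in old HSC (8.33%) and 3 in young HSC (0.926%). None of them reached the top 10% of a list. The labels do not say how reads matching several copies were handled, so the split between a gene and its copies is uncertain.

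Related groups were also marked and highly ranked. Mitochondrial ribosomal protein genes were marked in 75 of 78 in old HSC ABC, 78 in old HSC and 77 in young HSC, and 46.2%, 48.7% and 46.2% of them were in the top 10% of equal-length lists. Proteasome subunit genes were marked in 39 of 40, 40 and 38, and 55%, 55% and 60% were in that top 10%. The standard ribosomal genes had 62.3%, 58.4% and 66.2%. All 26 translation factor genes, 29 ribosome biogenesis genes and 18 translation regulator genes listed were marked in every library. In the top 10% of equal-length lists were 46.2% of the translation factor genes in old HSC ABC, 65.4% in old HSC and 65.4% in young HSC, so in old HSC they exceeded the ribosomal genes. The median place of the proteasome genes in old HSC was 6.71%, against 8.33% for the standard ribosomal genes. Lower shares reached the top 10% of equal-length lists among ribosome biogenesis genes, at 31%, 51.7% and 41.4%, in the order old HSC ABC, old HSC and young HSC. Among translation regulator genes the shares were 38.9%, 27.8% and 44.4%. Of the regulators, Larp1 was among the highest, at 2.03% in old HSC ABC, 1.01% in old HSC and 1.02% in young HSC. Mycn was among the lower ones, at 25.2%, 25% and 59.4%. Rack1 and Fau, outside the symbol rule, were marked in every library too. Rack1 stood at 5.12%, 1.19% and 4.73%, and Fau at 3.92%, 5.24% and 9.19%, each in the order old HSC ABC, old HSC and young HSC.

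**Figure D2:**
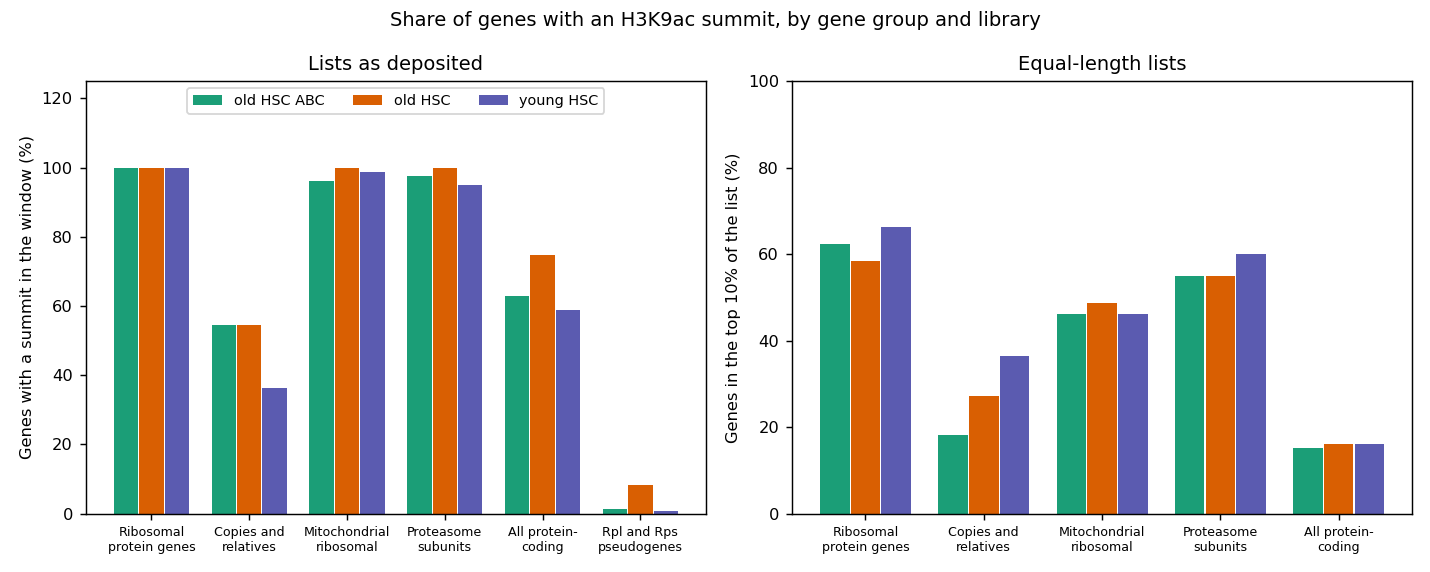
Left, share of genes with a summit inside the record or within 1 kb in the lists as deposited, and right, share of genes in the top 10% of equal-length lists, in %, for old HSC ABC, old HSC and young HSC. The standard ribosomal genes are at 100% on the left and between 58.4% and 66.2% on the right, and the pseudogenes do not exceed 8.33%.

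The summits mostly lay inside the genes. The best summit was inside the record for 63 of 77 standard genes in old HSC ABC, 62 in old HSC and 64 in young HSC. No such count is given for other genes. Over all members the median record was 3179 bp and the median window 5179 bp, so the record fills most of the window. For the 57 genes with an annotated start, its median position was 462 bp past the nearest start in old HSC ABC, 232 bp in old HSC and 444 bp in young HSC. For other genes with records of at most 10 kb the medians were 269, 294 and 254 bp. These distances are negative before the start, so their medians do not measure how near the summits lay. The share lying 501 to 1500 bp past the start was 42.1% in old HSC ABC, 29.8% in old HSC and 40.4% in young HSC, against 21.6%, 18.6% and 21.6% for those other genes. Further than 1500 bp lay 7.02%, 1.75% and 3.51%, against 15.9%, 19.9% and 12%. Before the start lay 14%, 19.3% and 15.8%, against 25.8%, 25.4% and 27% for those other genes. Rps13 and Rps28 were exceptions. The Rps13 summit lay 34 bp before the start in old HSC ABC, 29 bp in old HSC and 32 bp in young HSC, and that of Rps28 30, 15 and 17 bp before it. Rpl11 had its summit inside the gene, 654 bp past the start in old HSC ABC, 758 bp in old HSC and 958 bp in young HSC.

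**Figure D3:**
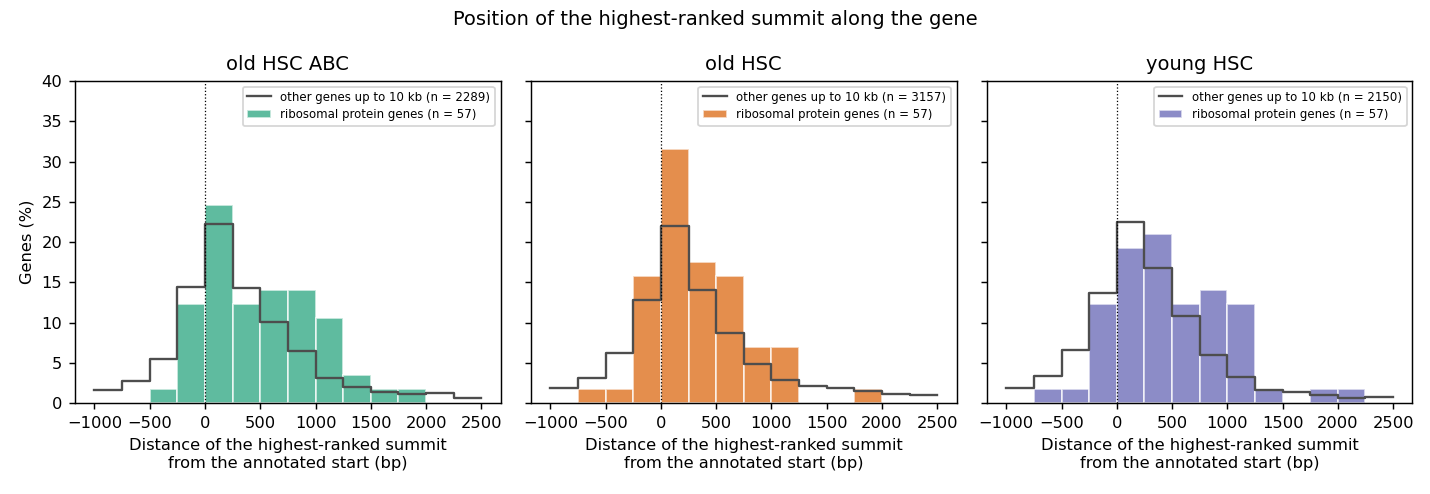
Distance of the highest-ranked summit from the nearest annotated start, in bp, as the share of genes per 250 bp, for 57 standard ribosomal genes (bars) and other genes of at most 10 kb (line) in old HSC ABC, old HSC and young HSC. Of the ribosomal genes, 42.1%, 29.8% and 40.4% lie 501 to 1500 bp past the start, and the scale ends before the furthest summits.

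Summit positions recurred between libraries. For 4 standard genes, Rpl8, Rpl12, Rplp0 and Rps27a, the best summits of all 3 libraries lay within 1 bp of each other (5.19%, other genes 4.8%). For 51 of the 77 (66.2%) they lay within 500 bp, as they did for 62.2% of other genes marked in all libraries. Old HSC ABC and young HSC had 34 standard genes with best summits within 50 bp of each other (44.2%, other genes 33.3%). Old HSC and young HSC had 27 (35.1%, other genes 35.8%), and old HSC ABC and old HSC had 22 (28.6%, other genes 34.4%). Across the 77 genes, ranks in the lists as deposited correlated with a Spearman rho of 0.78 between old HSC and young HSC, 0.79 between old HSC ABC and old HSC and 0.78 between old HSC ABC and young HSC. Genes within a library share its depth and are not replicates. Over other genes rho was 0.85, 0.83 and 0.79.

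The comparison of old HSC with young HSC asked which genes differed with age. Old HSC had 2 members marked that young HSC lacked, Rpl37rt and Rps23rg1, against a background of 16.1% of all protein-coding genes. No member was marked only in young HSC, where the background was 0.407%. All standard genes were marked in both. Rpl37rt had a score of 2.87 in old HSC, 213 bp before its start, and the nearest young HSC summit was 1444 bp away, just beyond the window. Rps23rg1 had 5 summits in old HSC, none scoring above 5.46, and the nearest young HSC summit lay 13369 bp away. In equal-length lists neither gene differed, and no member was marked in only 1 of them. The backgrounds there were 6.18% for old HSC only and 3.67% for young HSC only.

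Among 81 members in both equal-length lists, 22 (27.2%) had a rank number in young HSC at most 0.5 times that in old HSC, against 9.9% of all genes in both lists. The reverse held for 11 members (13.6%), against 13.2% of all genes, which is near the background. Limited to members in the top 10% of at least 1 list, a choice that lets genes in through the library where they rank high, the reverse count was 7. Genes far down a list reach this ratio less easily because the list ends, and most members rank high, so the background is not matched to them. The median ratio of the rank number in old HSC to that in young HSC was 1.23 for members and 0.94 for all genes. Rpl8 ranked 837th in old HSC and 99th in young HSC. Rpl31, a Diamond-Blackfan gene, ranked 1088th in old HSC and 242nd in young HSC. Rpl9 ranked 2522nd and 433rd, and Rpl18 7652nd and 1759th, again in old HSC and then young HSC. Ranked higher in old HSC were Rps23 (546th in old HSC, 2051st in young HSC), which helps decoding, Rpl10 (994th and 3257th), which joins the large subunit late in its assembly, and Rpl11 (113th and 235th). By this measure 12 of 46 large subunit genes (26.1%) and 9 of 31 small subunit genes (29%) ranked higher in young HSC. Of 77 mitochondrial ribosomal protein genes, 22.1% ranked higher in old HSC and 6.49% in young HSC. Of 38 proteasome subunit genes, 31.6% ranked higher in old HSC and 18.4% in young HSC. Of 26 translation factor genes, 5 (19.2%) ranked higher in old HSC and 7 (26.9%) in young HSC, both above the shares of all genes. Granulocyte markers moved too, with 8 of 8 marked in old HSC and 5 of 8 in young HSC, and their part in these ranks was not tested.

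Old HSC ABC was compared with old HSC for what differed with ABC. Rpl3l, a heart and skeletal muscle form of Rpl3, was the 1 member marked only in old HSC ABC (background 0.693%), and Rpl37rt the 1 marked only in old HSC (background 12.4%). The best Rpl3l summit in old HSC ABC, with a score of 5.82, lay 692 bp past the end of its record, inside the record of the neighbouring Msrb1. The nearest old HSC summit lay 1302 bp from Rpl3l. For Rpl37rt the nearest old HSC ABC summit lay 1402 bp away. In equal-length lists Rps23rg1 and Rpl3l were marked only in old HSC ABC, and Rps24 only in old HSC.

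Of 80 members in both equal-length lists, 18 (22.5%) had a rank number in old HSC ABC at most 0.5 times that in old HSC, against 10.4% of all genes, and 8 (10%) the reverse, against 17.8%. The median ratio of rank numbers, old HSC ABC over old HSC, was 0.887 for members and 1.13 for all genes. Rpl35a, a Diamond-Blackfan gene, ranked 1276th in old HSC ABC and 6111th in old HSC. Rpl29 ranked 221st and 1058th, Rps10 1894th and 8697th, and Rps2 1441st and 5513th in old HSC ABC and then old HSC. The Rps10 summit lay deep in its gene, 1684 bp past the start in old HSC ABC and 1834 bp past it in old HSC. Going the other way, Rpl10 ranked 6851st in old HSC ABC and 994th in old HSC, Rpl41 7892nd and 2025th, and Rpl11 237th and 113th. Of 30 small subunit genes compared, 8 were ranked higher in old HSC ABC and 1, Rps9, was ranked higher in old HSC by this measure. Of 46 large subunit genes, 10 were ranked higher in old HSC ABC and 6 in old HSC. Translation factor genes went the other way from the members, with 3.85% of 26 higher in old HSC ABC and 38.5% in old HSC. So did mitochondrial ribosomal protein genes (10.8% and 24.3% of 74) and proteasome subunit genes (10.8% and 21.6% of 37). Granulocyte markers were marked in 5 of 8 in old HSC ABC and 8 of 8 in old HSC, and their part in these ranks was not tested.

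**Figure D4:**
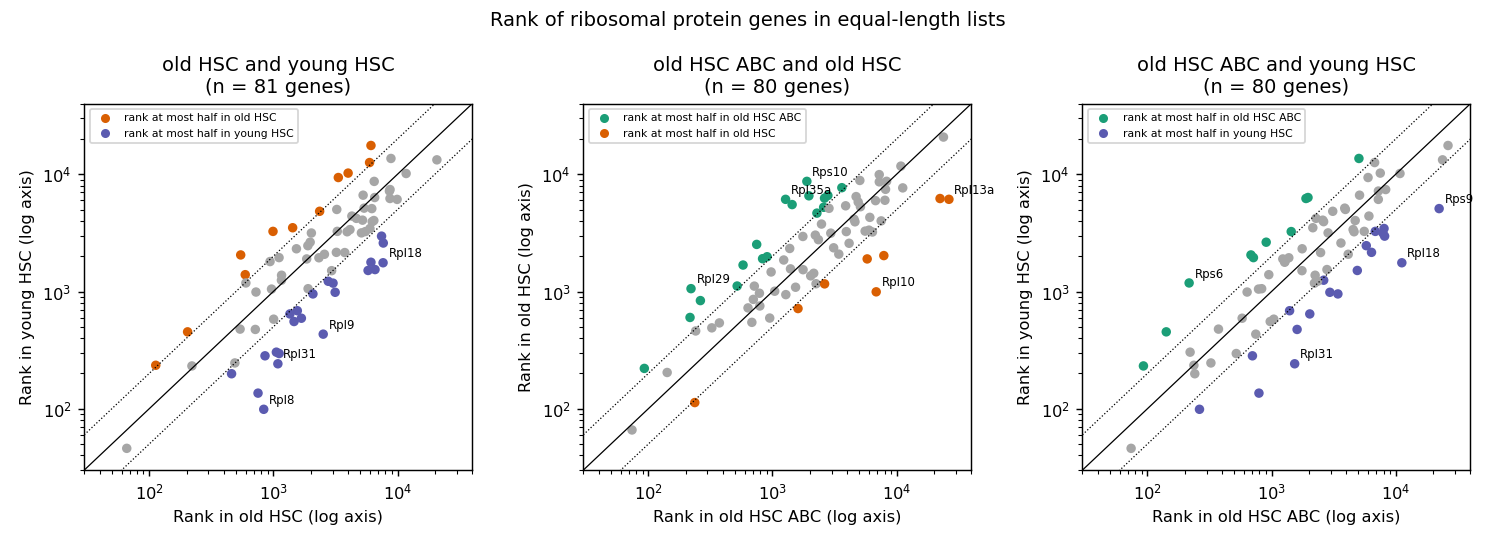
Rank of the best summit of each member in equal-length lists, on log axes, for old HSC against young HSC, old HSC ABC against old HSC and old HSC ABC against young HSC; dotted lines mark a rank number 2-fold lower or higher, points beyond them are coloured by the library with the better rank at any rank, and some of the furthest are named. Rpl8 lies at 837 in old HSC and 99 in young HSC.

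In the comparison of old HSC ABC with young HSC, Rps23rg1 and Rpl3l were marked only in old HSC ABC (background 7.66%), and no member only in young HSC (background 3.66%). In equal-length lists Rps23rg1 and Rpl3l were again marked only in old HSC ABC (background 5.23%), and Rps24 only in young HSC (background 5.6%). By rank, 10 of 80 members (12.5%) were higher in old HSC ABC, against 13.1% of all genes, and 19 (23.8%) were higher in young HSC, against 17.5%. The share higher in old HSC ABC was near the background. The median ratio of rank numbers, old HSC ABC over young HSC, was 1.17 for members and 1.06 for all genes. Of 46 large subunit genes 3 ranked higher in old HSC ABC and 10 in young HSC, and of 30 small subunit genes 7 and 7. The difference between the subunits was not tested. Rps6 ranked 217th in old HSC ABC and 1183rd in young HSC, Rps10 1894th and 6214th, and Rps12 1967th and 6333rd. Ranked higher in young HSC were Rpl18 (11205th in old HSC ABC, 1759th in young HSC), whose window overlaps Sphk2, and Rpl31 (1536th and 242nd). Each library serves in 2 of the 3 comparisons, so their counts are not independent.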

How the data were processed

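H3K9ac CUT&Tag was run on 3 libraries, 1 per group; groups follow the labels. The submitters' processing notes name the build mm10 and the tools BWA, MACS2, Picard and edgeR, without roles, versions, control library or settings. The authors deposited 1 list of 1 bp summits per library, with a score read as −log10 of the q-value, because each list starts at 1.30. Read depth is unknown, so no interval or floor that needs it is given.

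Gene records came from the RefSeq table of GRCm38.p6 (49997 records), and starts, strands and sequences from its promoter table, which matched 68 of the 88 members. A gene was marked by a summit inside its record or within 1 kb of either end, and its highest-scoring summit gave its rank. Equal-length lists took the 33248 highest-scoring summits. Rank comparisons counted genes in both such lists; this rule was chosen after the values were seen. Gene assignment was tested on simulated data. Python 3.11.15, pandas 2.3.3 and scipy 1.17.1 were used. Named genes were a fixed set by role, the 5 highest and 5 lowest members per library and members differing in presence; others, including all named for a rank shift or a position, were chosen after their values were seen. Members, lists and tests were chosen with earlier results of these data known. Alternatives were other windows, score minimums of 5 and 10, equal-length lists, and subsets of members. A few genes are not reported here by name; counts and medians include them.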

Additional observations from a re-analysis of the deposited data

How the results depend on the processing

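With 1 library per group, no result has a replicate check. No paired analysis was possible because each group has 1 library and the labels give no replicate numbers. Of 126 values recomputed under an alternative, 68 kept within their margin and 58 moved; the cause of a move was not tested beyond the smaller number of genes or summits that a stricter setting leaves. What depth limits is unknown.

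Marked members numbered 83 in old HSC ABC, 83 in old HSC and 81 in young HSC. Without overlapping windows, which leaves 42 members, they numbered 40, 40 and 39 in old HSC ABC, old HSC and young HSC, and with summits within 1 kb of a start only, 54 in old HSC ABC and 53 in young HSC.

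Members in the top 10% numbered 55 in old HSC ABC, 79 in old HSC and 55 in young HSC. With score minimums the top 10% was that of the shortened list, a stricter cut. When only summits scoring at least 5 were kept, it held 32 members in old HSC ABC and 31 in young HSC. For summits scoring at least 10 it held 11, 30 and 18 members in old HSC ABC, old HSC and young HSC. In equal-length lists old HSC had 48. Without overlapping windows there were 29, 38 and 26, and at starts only 35 in old HSC ABC and 34 in young HSC.

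For members marked in 1 library only, shares over all genes are given above for the main setting and equal-length lists only. Under the other settings, here and below, the member counts have no such background and are not read as results about the members. Members marked in old HSC and not in young HSC numbered 2. They became 10 with summits near the record ends only, 7 inside the record only, 1 with 2 kb, 13 at a score of at least 10, 0 in equal-length lists, 1 without overlapping windows, 0 among standard genes and 9 at starts only. Those marked in young HSC only, 0 before, became 2 near the ends, 4 inside the record and 2 at starts.

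Members marked in old HSC ABC and not in old HSC numbered 1. They became 5 near the ends, 7 inside the record, 0 at a score of at least 10, 2 in equal-length lists, 0 without overlapping windows, 0 among standard genes and 3 at starts. Those in old HSC only, 1 before, became 8 near the ends, 8 inside the record, 2 with 500 bp, 0 with 2 kb, 5 and 19 at scores of at least 5 and 10, 0 without overlapping windows, 0 among standard genes and 9 at starts.

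Members marked in old HSC ABC and not in young HSC numbered 2. They became 7 near the ends, 6 inside the record, 1 and 4 at scores of at least 5 and 10, 1 without overlapping windows, 0 among standard genes and 4 at starts. Those in young HSC only, 0 before, became 2 near the ends, 4 inside the record, 1 with 500 bp, 3 and 10 at scores of at least 5 and 10, 1 in equal-length lists and 3 at starts.

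In an alternative chosen after seeing the data, with only members in the top 10% of at least 1 equal-length list, those ranked at least 2-fold higher in old HSC than in young HSC numbered 7 in place of 11.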
